A study of Mus musculus with 3 samples.

Results

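The IgLON family of neural cell adhesion genes was examined in single nuclei of differentiated neurosphere cultures from the mouse subventricular zone (SVZ). Its 5 members were found by their symbols, Ntm, Lsamp, Opcml, Negr1 and Iglon5, among the 30559 genes of the count matrices, and each symbol occurred once. The family was chosen by the Ntm ratios of the CBP-ablated library, which had been seen to be below control in every class of nuclei, so these values are given as a description, and the family was taken as a whole to set its paralogs beside it. CBP and p300 are paralogous lysine acetyltransferases that act as transcriptional co-activators.

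Each culture type (control, CBP-ablated, p300-ablated) was sequenced as 1 library, 3 in all, so that there were no replicates and no test between conditions was made. The genotype labels are control, CBPf/f and p300f/f. All 3 libraries carry tamoxifen as their treatment label, whereas the methods describe lentiviral delivery of Cre recombinase with a red fluorescent reporter, and of the reporter without Cre in control. The cultures were made from the SVZ of newborn C57BL/6 pups, about 15 cultures were pooled for each library on day 15 of differentiation, nuclei were sorted for the reporter and 16000 were loaded per library. The line of mice behind the control cultures is not stated. Intervals given below are 95% intervals that cover counting error only, and nuclei of a library are not replicates of its condition. Both ablated libraries were compared with the same control library, so the 2 sets of ratios share its counting error and its composition.

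IgLON proteins are immunoglobulin-domain glycoproteins held in the outer leaflet of the plasma membrane by a glycosylphosphatidylinositol (GPI) anchor. They bind one another as homodimers and heterodimers, on the same membrane or across a cell contact, and are known for effects on neurite outgrowth and on the formation of synapses. Ntm encodes neurotrimin, Lsamp the limbic system-associated membrane protein, Opcml the opioid-binding cell adhesion molecule (OBCAM), Negr1 the neuronal growth regulator also called Kilon, and Iglon5 the member that is the target of autoantibodies in a human neurological disease. Metalloproteases of the ADAM family can release IgLON ectodomains from the cell surface.

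Of the 5 genes, 4 are among the longest of the mouse genome. In GRCm38, Ntm (ENSMUSG00000059974) covers chr9:28994750-29963141 on the minus strand, a span of 968 kb. Opcml (ENSMUSG00000062257) lies beside it at chr9:27790775-28925410 on the plus strand, with 1135 kb, and the 3′ ends of this pair face each other across 69.3 kb. Lsamp (ENSMUSG00000061080), at chr16:39984361-42181679 on the plus strand, spans 2197 kb, and only 5 genes of the files are longer. Negr1 (ENSMUSG00000040037), at chr3:156561794-157316445 on the plus strand, spans 755 kb. Iglon5 (ENSMUSG00000013367), at chr7:43472904-43490075 on the minus strand, spans 17.2 kb. Exons of any transcript make up 0.83% of the span of Ntm, 0.78% of Lsamp, 1.28% of Opcml and 1.39% of Negr1, so that nearly all of these genes is intron. Since unique molecular identifiers (UMIs) of nuclear RNA were counted over exons and introns, a long gene offers more sequence to count, and levels are compared between members only per kilobase (kb) of span.

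Promoter windows of RefSeq (GRCm38.p6) were found for all 5 members, in 7 windows. CBP takes its name from binding to CREB, the factor of the cyclic AMP response element (CRE), so the 250 bases before each annotated start were searched on both strands for the full element TGACGTCA and for its shorter core TGACG, whose reverse complement is CGTCA and which the full element contains. None of the 7 windows held the full element, which 1.55% of all 32851 windows of that length held, and 1 of the 7 held a core site, against 17.8% of all windows. The windows of Ntm, the gene that prompted the comparison, are shown with the window of Lsamp that held the core site, which is in capitals; no other letters are capitals because no other match was found. They are written 5′ to 3′ along the gene, Ntm from chr9:29413453-29413702 and chr9:29412686-29412935, both minus strand, and Lsamp from chr16:41532576-41532825, plus strand.
Ntm, outer start: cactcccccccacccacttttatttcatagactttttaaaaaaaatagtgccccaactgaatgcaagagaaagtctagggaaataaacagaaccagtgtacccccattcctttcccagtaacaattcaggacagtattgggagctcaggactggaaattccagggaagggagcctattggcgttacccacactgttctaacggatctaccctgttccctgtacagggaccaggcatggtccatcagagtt
Ntm, inner start: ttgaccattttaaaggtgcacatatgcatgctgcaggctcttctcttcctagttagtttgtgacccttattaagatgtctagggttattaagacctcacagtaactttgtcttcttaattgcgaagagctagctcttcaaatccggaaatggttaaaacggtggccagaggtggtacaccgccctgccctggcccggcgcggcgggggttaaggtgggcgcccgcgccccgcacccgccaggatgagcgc
Lsamp, inner start: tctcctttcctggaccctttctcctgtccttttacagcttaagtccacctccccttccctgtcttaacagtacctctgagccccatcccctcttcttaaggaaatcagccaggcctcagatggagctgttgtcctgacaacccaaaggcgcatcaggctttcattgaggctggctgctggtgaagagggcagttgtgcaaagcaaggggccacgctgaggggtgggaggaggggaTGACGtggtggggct
The first base of the core site lies 15 bases before the Lsamp start. The Ntm windows differed in CpG content, with 2 CG dinucleotides in the outer and 14 in the inner window, against a median of 6 over all windows. All these starts of Ntm and Lsamp lie inside the annotated gene spans, and 3′ counts do not tell which start a nucleus used, so the windows are a description of sequence and nothing about binding was measured. Outer and inner give only the order of the windows. The annotated 5′ end of Ntm, at chr9:29963141, had no window, so the sequence before it was not searched.

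There were 4884 nuclei of control, 3017 of the CBP-ablated and 4648 of the p300-ablated culture, with 16312170, 12748336 and 18876682 UMIs. Levels are given as CPM, the UMI count of a gene scaled to a common total of UMIs for every library or class. Crebbp, the gene of CBP, was at 335 CPM in control, 369.5 in CBP-ablated and 365 in p300-ablated nuclei, and Ep300, the gene of p300, at 114, 136 and 115 CPM. Counts over a whole gene do not show whether a floxed part was lost, so neither gene checked the labels. Clustering gave 10 classes named from marker genes and an unnamed cluster led by Gpr149. Another unnamed cluster was led by Gm8251, Trib3 and Pygm, and is called here by Gadd45b, which is also among its 10 leading genes. This Gadd45b cluster had median depths of 2009, 2092 and 2151 UMIs in control, CBP-ablated and p300-ablated nuclei, and 37 of its 481 nuclei were called doublets. In a cluster led by Ogn, 173 of 184 nuclei were called doublets. The Ogn cluster is not among the classes, though its nuclei are in the whole-library values. The 1279 astrocyte-like nuclei all came from the control library, so this class could not be compared, and 11 classes were. Of the 5 members, 4 were among the genes used for clustering, and clustering without them is among the alternatives. Of the 11 classes, the smallest in any library was the immature neuron-like class of the CBP-ablated library, with 20 nuclei. Control and CBP-ablated libraries shared 3 cell barcodes, control and p300-ablated 7, and CBP-ablated and p300-ablated 1.

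Microglia-like nuclei, which come from another lineage and should lack most neural transcripts, serve as a measure of free RNA. They were shallow, with median depths of 1134, 1010 and 1664 UMIs against 3219, 4016 and 3902.5 UMIs over all nuclei of the control, CBP-ablated and p300-ablated libraries. In those under 1500 UMIs, the mean count of Ntm per nucleus was 0.647, 0.170 and 0.348 UMIs in the same order, or 4.19%, 3.51% and 4.85% of the mean over all nuclei of their library. For Lsamp these shares were 5.36%, 6.37% and 5.38%, for Opcml 3.02%, 6.17% and 6.46%, and for Negr1 5.53%, 3.91% and 9.38%. These shares rest on 119, 53 and 23 shallow nuclei and set counts per nucleus against those of deeper nuclei. Scaled to depth and taken over all its nuclei, not the shallow ones alone, the microglia-like class stood closer to its library. Opcml was at 709, 2141 and 2136 CPM in it, against 4755, 5427 and 5967 CPM in the whole libraries. Ntm was at 565, 203 and 646 CPM, against 4625, 1144 and 1766 CPM. Classes close to the shallow microglia-like counts per nucleus are named where they occur.

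**Figure D1:**
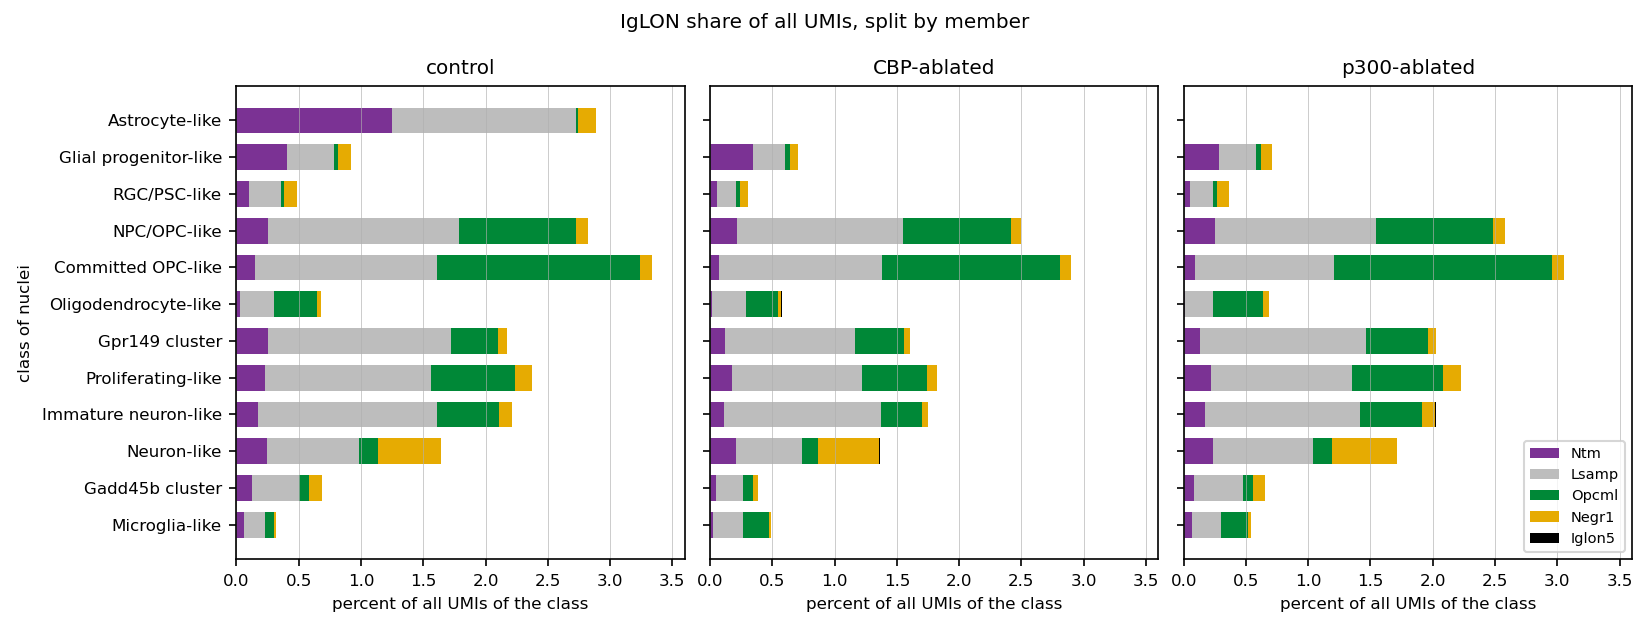
Share of all UMIs of a class that fell on the IgLON family (x axis, percent), split by member (colours), for each class (y axis) and library (panels). Astrocyte-like bars exist for control only, and the committed oligodendrocyte precursor-like class (shown as Committed OPC-like) has the longest bar in all 3 libraries, from 2.90% to 3.34%.

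The family took a large part of the nuclear RNA. It held 2.18% of all UMIs of the control library, 1.45% of the CBP-ablated and 1.73% of the p300-ablated library. Without the astrocyte-like nuclei the control share was 1.96%. The share was highest in control committed oligodendrocyte precursor-like nuclei, with 3.34%, followed by astrocyte-like nuclei with 2.89%, and lowest in microglia-like nuclei with 0.318%. In RGC/PSC-like nuclei (named after the radial glial and pluripotent stem cells of the study) it was 0.487%, and the CBP-ablated and p300-ablated libraries held 0.308% and 0.363% there.

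The leading member differed between groups of classes. Per kb of span, the highest control level was that of Ntm in astrocyte-like nuclei (12.9 CPM per kb) and in glial progenitor-like nuclei (4.22 CPM per kb). Opcml led per kb in the NPC/OPC-like class (neural and oligodendrocyte precursors, 8.30 CPM per kb), in committed oligodendrocyte precursor-like nuclei (14.4 CPM per kb) and in oligodendrocyte-like nuclei (3.03 CPM per kb). Negr1 led per kb in neuron-like nuclei, with 6.74 CPM per kb, and in RGC/PSC-like nuclei, with 1.43 CPM per kb. Lsamp led per kb in immature neuron-like nuclei (6.51 CPM per kb) and in the Gpr149 cluster (6.67 CPM per kb). The same member led per kb in both ablated libraries in each of these classes that they held.

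Opcml and Ntm, although neighbours on chromosome 9, were high in different classes. In control, Opcml made up 0.790% of the family UMIs in astrocyte-like nuclei and 48.8% in committed oligodendrocyte precursor-like nuclei, whereas Ntm made up 43.2% and 4.48%. Over the 34 sums of a class in a library, Pearson's r of log2(CPM + 1) was −0.10 between Ntm and Opcml, 0.64 between Ntm and Negr1, 0.58 between Ntm and Lsamp, 0.67 between Lsamp and Opcml and −0.04 between Opcml and Negr1. These sums share libraries and depth and are not independent, so r only describes likeness of pattern.

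**Figure D2:**
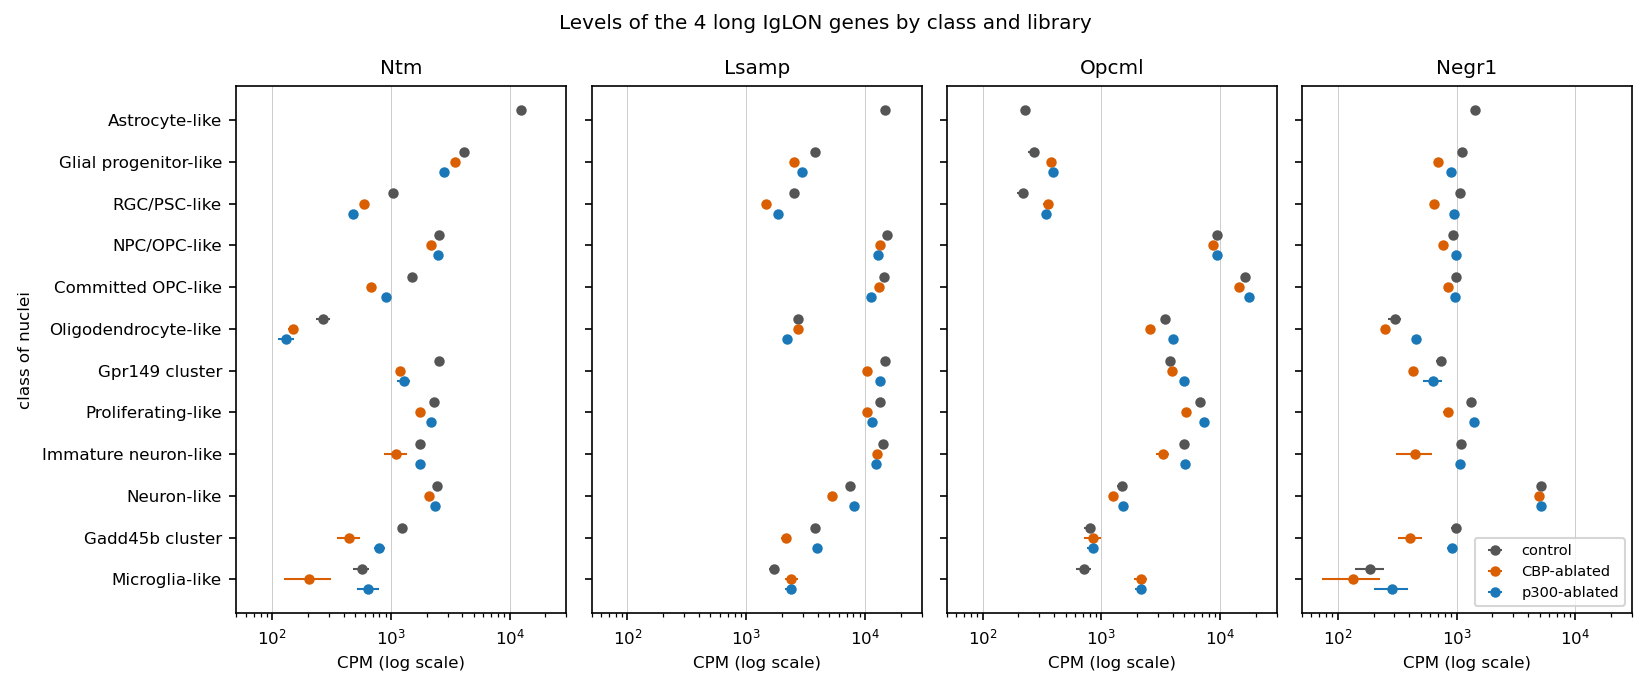
Levels of Ntm, Lsamp, Opcml and Negr1 (panels; x axis in CPM, log scale) in each class (y axis) of the control, CBP-ablated and p300-ablated libraries (colours), with exact Poisson 95% intervals as bars. Ntm is highest in control astrocyte-like nuclei at 12467 CPM, and Negr1 stands between 4945 and 5159 CPM in neuron-like nuclei of all 3 libraries.

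Ntm was highest in astroglia. In control its level was 12467 CPM (12357 to 12578) in the astrocyte-like class, and the glial progenitor-like class followed with 4086 CPM. NPC/OPC-like, neuron-like and proliferating-like nuclei and the Gpr149 cluster lay between 2284 and 2555 CPM, a range in which the intervals of neighbours overlapped. Immature neuron-like nuclei followed with 1768 CPM, committed oligodendrocyte precursor-like with 1495, the Gadd45b cluster with 1239, RGC/PSC-like with 1032, microglia-like with 565 and oligodendrocyte-like nuclei with 268 CPM. A median astrocyte-like nucleus held 36 Ntm UMIs, against 10 in glial progenitor-like and 0 in oligodendrocyte-like nuclei of control.

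In the whole libraries, Ntm stood at 4625 CPM in control, 1144 in CBP-ablated and 1766 in p300-ablated nuclei. The log2 ratio against control was −2.02 (−2.04 to −1.99) for the CBP-ablated and −1.39 (−1.41 to −1.37) for the p300-ablated library, and 0.581% of 11883 genes and 0.784% of 12247 genes had a lower ratio. Genes with a log2 ratio below −0.5 made up 12.2% of all genes when the CBP-ablated library was compared with control, and 10.3% for the p300-ablated library. The astrocyte-like nuclei, absent from both ablated libraries, held 48924 of the 75442 control UMIs of Ntm. Outside that class, Ntm stood at 2141 CPM in control, 1144 in CBP-ablated and 1766 in p300-ablated nuclei, and the log2 ratios were −0.90 (−0.93 to −0.88) and −0.28 (−0.30 to −0.25). Here genes below −0.5 made up 9.07% of 11429 genes and 5.75% of 11877 genes, respectively. When the 11 classes were weighted by their control shares, the CBP-ablated ratio was −0.45, so that the mix of classes moved with the value outside the astrocyte-like class. The ratios of −0.90 and −0.28 include the Ogn cluster, and without it they were −0.83 and −0.20. The weighted value of −0.45 leaves that cluster out.

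Within classes, Ntm was lower in the CBP-ablated library in 11 of 11, which is what it was chosen for. Of the 2949 genes with enough UMIs in every class, 0.780% were lower in all 11 and 2.78% in at least 10. The corresponding shares in the p300-ablated comparison were 0.900% and 2.56% of 2889 genes, and Ntm was lower there in 10 of 11 classes, the exception being microglia-like nuclei. With 5% of the UMIs of each class taken as free RNA of the composition of its library, Ntm was lower in 5 of 11 classes of the p300-ablated library. The CBP-ablated count of 11 of 11 did not hold in that setting either, since the oligodendrocyte-like ratio was then above 0. Without this subtraction, 11 of 11 Ntm intervals in the CBP-ablated and 6 of 11 in the p300-ablated comparison lay below 0.

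The size of the Ntm difference depended on the class. In NPC/OPC-like nuclei Ntm was at 2555 CPM in control, 2161 in CBP-ablated and 2512 in p300-ablated nuclei, with log2 ratios of −0.24 (−0.31 to −0.18) and −0.02 (−0.06 to 0.01). In neuron-like nuclei it was at 2426, 2104 and 2362 CPM, with ratios of −0.21 (−0.34 to −0.07) and −0.04 (−0.19 to 0.11). In glial progenitor-like nuclei it was at 4086, 3469 and 2822 CPM, with ratios of −0.24 (−0.29 to −0.18) and −0.53 (−0.59 to −0.48). The p300-ablated level was therefore the lowest in the glial progenitor-like class, whereas in NPC/OPC-like and neuron-like nuclei the CBP-ablated level was. In a glial progenitor-like sub-cluster of the finer clustering given below, the CBP-ablated ratio was −0.04 (−0.09 to 0.02).

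Larger differences were found in other classes. In committed oligodendrocyte precursor-like nuclei, Ntm was at 1495, 681 and 906 CPM, with log2 ratios of −1.13 (−1.22 to −1.05) for the CBP-ablated and −0.72 (−0.83 to −0.62) for the p300-ablated library. The Gpr149 cluster had 2537, 1199 and 1280 CPM, with ratios of −1.08 (−1.19 to −0.97) and −0.99 (−1.19 to −0.79). In RGC/PSC-like nuclei the levels were 1032, 592 and 476 CPM, with ratios of −0.80 (−0.92 to −0.69) and −1.12 (−1.22 to −1.02). After each nucleus was thinned to 1500 UMIs, an Ntm UMI was found in 62.4%, 35.5% and 49.6% of committed oligodendrocyte precursor-like nuclei and in 44.7%, 30.1% and 32.1% of RGC/PSC-like nuclei, compared with 79.7%, 52.2% and 68.6% and with 64.2%, 44.4% and 47.0% before thinning. Thinning kept 4636, 2922 and 4513 nuclei of at least 1500 UMIs in the control, CBP-ablated and p300-ablated libraries. Thinned microglia-like nuclei, in which the gene is not expected, had an Ntm UMI in 32.8%, 22.7% and 30%.

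Other Ntm ratios rest on few UMIs or lie near the free RNA. In oligodendrocyte-like nuclei Ntm was at 268, 148 and 131 CPM, or a mean of 1.41, 0.899 and 0.808 UMIs per nucleus, and the ratio of −0.85 in the CBP-ablated library became 1.32 with the same 5% subtracted, and −0.27 when the counts of shallow microglia-like nuclei were subtracted. The p300-ablated ratio of −1.03 became 0.24 in the first of these settings. In neuron-like nuclei the CBP-ablated ratio became 0.02 with 10% taken as free RNA. Immature neuron-like nuclei of the CBP-ablated library gave −0.69 (−1.01 to −0.37) from 87 Ntm UMIs, and microglia-like nuclei −1.48 (−2.21 to −0.82) from 21 UMIs. The lowest CBP-ablated class ratio was −1.49 (−1.84 to −1.16) in the Gadd45b cluster, from 83 UMIs against 618 in control. In control, 27 of the 232 nuclei of this cluster were called doublets.

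**Figure D3:**
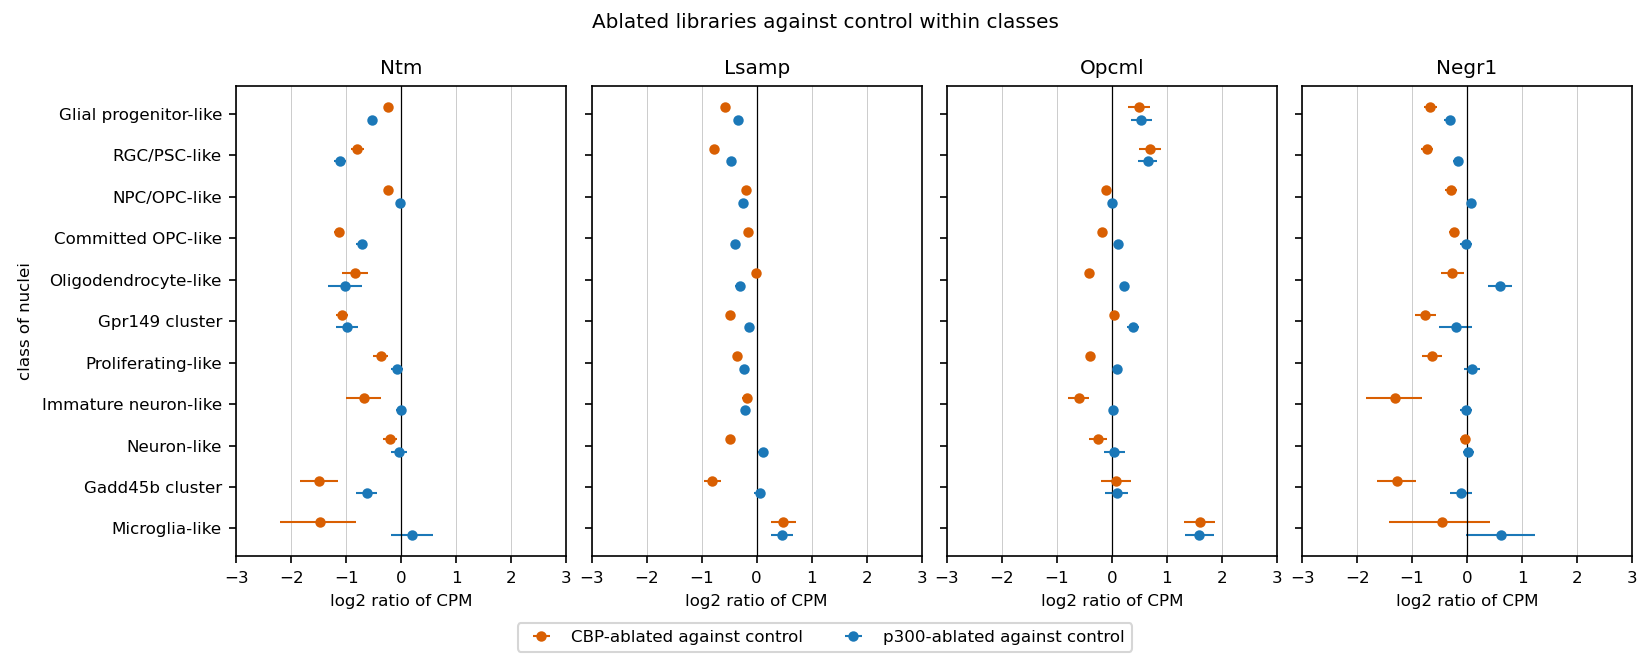
log2 ratio of CPM against control (x axis) for Ntm, Lsamp, Opcml and Negr1 (panels) in the 11 classes compared (y axis), for the CBP-ablated and the p300-ablated library (colours), with 95% intervals of counting error as bars. All CBP-ablated points of Ntm and Negr1 lie below 0, while Opcml has 6 below and 5 above.

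Negr1 was lower in as many classes of the CBP-ablated library as Ntm. In control its level was 5089 CPM (4840 to 5347) in neuron-like nuclei, 1428 in astrocyte-like and 1326 in proliferating-like nuclei. Most other classes lay between 733 and 1107 CPM, oligodendrocyte-like nuclei had 301 CPM and microglia-like nuclei 186 CPM. The whole libraries held 1138 CPM in control, 799 in CBP-ablated and 1027 in p300-ablated nuclei, and the log2 ratios outside the astrocyte-like class were −0.39 (−0.43 to −0.35) and −0.03 (−0.06 to 0.01).

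Against control, Negr1 was lower in 11 of 11 classes of the CBP-ablated library, with 9 intervals below 0, beside the 0.780% of genes given above. In RGC/PSC-like nuclei it was at 1077, 650 and 958 CPM in control, CBP-ablated and p300-ablated libraries, with log2 ratios of −0.73 (−0.84 to −0.62) and −0.17 (−0.26 to −0.08). In glial progenitor-like nuclei it was at 1107, 696 and 892 CPM, with ratios of −0.67 (−0.79 to −0.55) and −0.31 (−0.41 to −0.21). In proliferating-like nuclei, at 1326, 851 and 1408 CPM, the ratios were −0.64 (−0.83 to −0.46) and 0.09 (−0.06 to 0.23). The Gpr149 cluster had 733, 433 and 635 CPM, with ratios of −0.76 (−0.95 to −0.57) and −0.21 (−0.52 to 0.09). The lowest CBP-ablated ratios of Negr1 rest on few UMIs. They were −1.31 (−1.84 to −0.82) in immature neuron-like nuclei, from 35 UMIs, and −1.28 (−1.64 to −0.93) in the Gadd45b cluster, from 77 UMIs.

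The neuron-like nuclei, where Negr1 was most abundant, were the class in which the libraries were closest. Negr1 was at 5089, 4945 and 5159 CPM there, and the log2 ratios were −0.04 (−0.13 to 0.05) and 0.02 (−0.08 to 0.12). In the p300-ablated library Negr1 was lower in 6 and higher in 5 classes, and in oligodendrocyte-like nuclei it was at 301, 249 and 456 CPM, with ratios of −0.27 (−0.48 to −0.06) and 0.60 (0.38 to 0.82). Set directly against the p300-ablated library, the CBP-ablated library had less Negr1 in 11 of 11 classes, with 10 intervals below 0, and 1.50% of 2205 genes were lower in all 11 in that comparison. The same direct comparison gave lower Ntm in 8 and higher Ntm in 3 classes, so Ntm did not separate the ablated libraries in 1 direction. With classes assigned by marker score, 9 classes could be compared with control and Negr1 was lower in 7 of them in the CBP-ablated and in 3 of them in the p300-ablated library.

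In the whole control library Lsamp led the family per kb of span, with 5.13 CPM per kb. Its class levels in control lay in a high and a low range. It was at 15282 CPM in NPC/OPC-like, 14762 in astrocyte-like, 14652 in the Gpr149 cluster, 14606 in committed oligodendrocyte precursor-like, 14309 in immature neuron-like and 13311 CPM in proliferating-like nuclei. Neuron-like nuclei held 7427 CPM, the Gadd45b cluster 3817, glial progenitor-like 3767, oligodendrocyte-like 2756 and RGC/PSC-like nuclei 2543 CPM. Whole libraries held 11274, 7085 and 8558 CPM, and the log2 ratios outside the astrocyte-like class were −0.52 (−0.53 to −0.51) for the CBP-ablated and −0.25 (−0.26 to −0.24) for the p300-ablated library.

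Lsamp was lower than in control in 10 of 11 classes of the CBP-ablated and in 8 of 11 of the p300-ablated library, beside the 2.78% of all genes that were lower in at least 10 in the former. In RGC/PSC-like nuclei it was at 2543, 1482 and 1842 CPM, with log2 ratios of −0.78 (−0.85 to −0.71) and −0.47 (−0.52 to −0.41). In NPC/OPC-like nuclei, at 15282, 13331 and 12910 CPM, the ratios were −0.20 (−0.22 to −0.17) and −0.24 (−0.26 to −0.23). In neuron-like nuclei the libraries parted, with 7427, 5306 and 8043 CPM and ratios of −0.49 (−0.56 to −0.41) and 0.11 (0.03 to 0.20), and the latter was −0.20 with classes by marker score. Microglia-like nuclei had higher Lsamp CPM in both ablated libraries, from 249 and 333 UMIs in all. Their median was 2 Lsamp UMIs per nucleus in each library. Nuclei with 10 or more made up 1.64% in control, 4% in CBP-ablated and 11.3% in p300-ablated. With classes weighted by control shares, the CBP-ablated ratio outside the astrocyte-like class was −0.26.

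Opcml was highest in the oligodendrocyte lineage. In control it was at 16299 CPM (16106 to 16494) in committed oligodendrocyte precursor-like nuclei, 9423 in NPC/OPC-like, 6810 in proliferating-like, 4973 in immature neuron-like, 3817 in the Gpr149 cluster, 3439 in oligodendrocyte-like and 1482 CPM in neuron-like nuclei. Astroglial and radial glial classes were low, with 228 CPM in astrocyte-like, 269 in glial progenitor-like and 217 in RGC/PSC-like nuclei. The median nucleus held 68 Opcml UMIs in the committed class and 0 in the astrocyte-like class.

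Whole libraries held 4755 CPM of Opcml in control, 5427 in CBP-ablated and 5967 in p300-ablated nuclei, log2 ratios of 0.19 (0.18 to 0.21) and 0.33 (0.31 to 0.34). Outside the astrocyte-like class, which held 896 of its 77568 control UMIs, the levels were 6189, 5427 and 5967 CPM and the ratios −0.19 (−0.20 to −0.17) and −0.05 (−0.07 to −0.04), the latter 0.08 with classes weighted by control shares. In the committed class Opcml was at 16299, 14336 and 17528 CPM, with ratios of −0.19 (−0.21 to −0.16) and 0.10 (0.08 to 0.13). In oligodendrocyte-like nuclei, at 3439, 2590 and 4014 CPM, the ratios were −0.41 (−0.47 to −0.35) and 0.22 (0.16 to 0.29). Opcml was lower in 6 of 11 classes of the CBP-ablated and in 1 of 11 of the p300-ablated library.

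Opcml was above control in both ablated libraries in 5 classes. In RGC/PSC-like nuclei the mean was 0.798, 1.49 and 1.38 UMIs per nucleus in control, CBP-ablated and p300-ablated libraries, and in glial progenitor-like nuclei 0.811, 1.34 and 1.34, beside 0.479, 1.42 and 1.57 in shallow microglia-like nuclei. The ratios there were 0.70 and 0.65 in RGC/PSC-like, 0.49 and 0.54 in glial progenitor-like and 1.59 and 1.59 in microglia-like nuclei, and the part of free RNA in them was not tested. The Gpr149 cluster stood well above that level, with 11.3, 13.1 and 16.4 UMIs per nucleus, and its levels of 3817, 3914 and 4968 CPM gave ratios of 0.04 (−0.04 to 0.11) and 0.38 (0.27 to 0.49). In the Gadd45b cluster, with 1.71, 2.01 and 2.04 UMIs per nucleus, they were 0.08 and 0.09. With the counts of shallow microglia-like nuclei subtracted, a setting added after the data were seen, the RGC/PSC-like ratio of the CBP-ablated library was −2.29. It rests on the little left of 1.49 UMIs per nucleus after 1.42 were subtracted, whereas 0.479 were subtracted in control. In this setting Opcml was lower in 9 of 9 classes that kept a value in the CBP-ablated and in 4 of 8 in the p300-ablated library. No share of all genes was taken for these counts. In neuron-like nuclei the CBP-ablated ratio of −0.25 was 0.46 without called doublets.

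Iglon5 was rare in every library. It gave 130 UMIs in control, 136 in CBP-ablated and 243 in p300-ablated nuclei, or 7.97, 10.7 and 12.9 CPM, and log2 ratios of 0.42 (0.06 to 0.78) and 0.69 (0.38 to 1.01). Outside the astrocyte-like class the ratios were 0.28 (−0.10 to 0.65) and 0.55 (0.22 to 0.89). Per kb of span it stood at 0.464, 0.621 and 0.750 CPM per kb, below every other member in the same library. An Iglon5 UMI was found in 2.50% of control (2.08% to 2.98%), 4.31% of CBP-ablated (3.61% to 5.10%) and 4.91% of p300-ablated nuclei (4.30% to 5.57%), and after thinning in 1.10%, 1.88% and 1.99%. It was found in 0 of 183, 0 of 75 and 0 of 53 microglia-like nuclei, and 3 UMIs, the limit that a count of 0 allows, stand for 10.5, 28.9 and 21.3 CPM there, so that absence was not detectable at this depth. With a minimum of 20 UMIs over the pair of libraries compared, 3 classes gave an Iglon5 ratio for the CBP-ablated library, from 0.13 to 0.52 with every interval across 0, and 5 for the p300-ablated library, from −0.27 to 1.71. The last, in RGC/PSC-like nuclei, came from 26 UMIs against 4 and had an interval of 0.19 to 3.69.

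**Figure D4:**
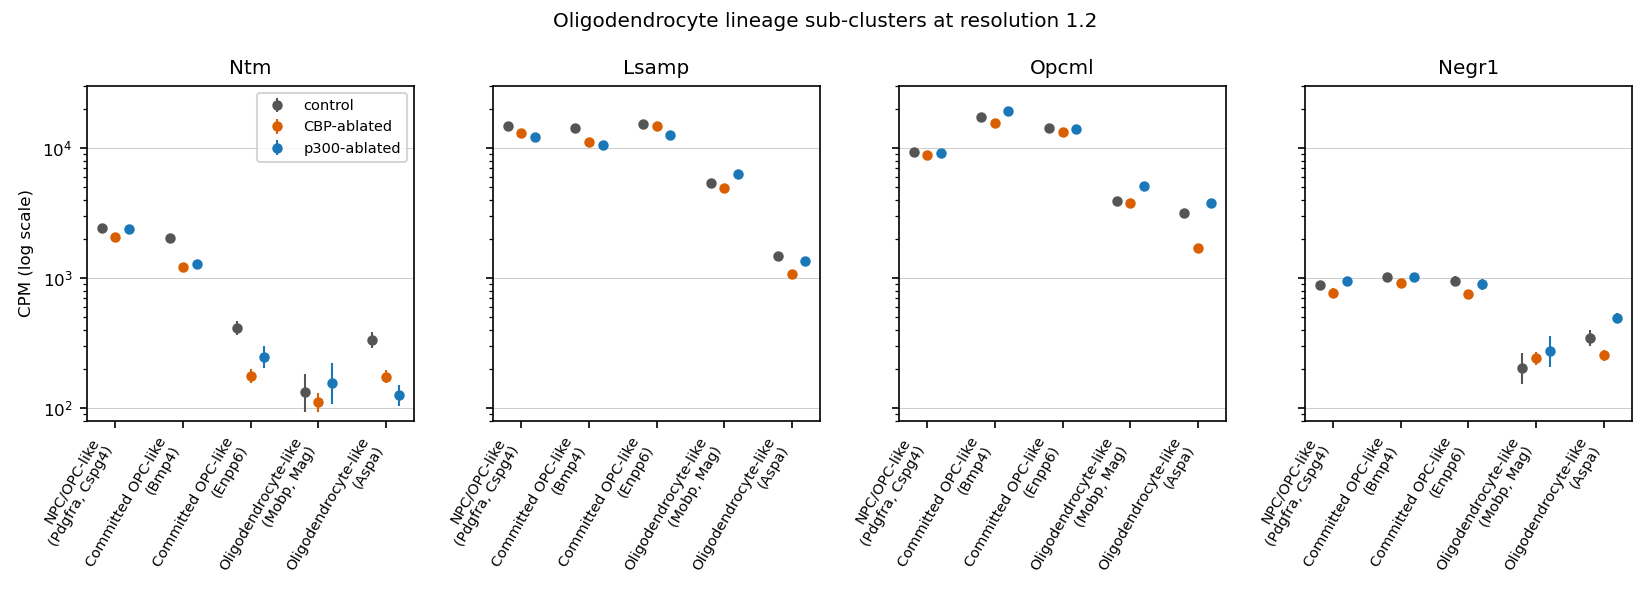
Levels of Ntm, Lsamp, Opcml and Negr1 (panels; y axis in CPM, log scale) in 5 sub-clusters of the oligodendrocyte lineage at resolution 1.2 (x axis, with leading genes), by library (colours), with exact Poisson 95% intervals as bars. Ntm is lower in the Enpp6 than in the Bmp4 sub-cluster in all 3 libraries, while the lowest Opcml value of the pair is 13233 CPM.

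Sub-clusters at a resolution of 1.2 gave a finer view of the lineage. In the committed class, a sub-cluster led by Arhgap24 and Bmp4 held Ntm at 2031 CPM in control, 1226 in CBP-ablated and 1291 in p300-ablated nuclei. A sub-cluster led by Ddc, Frmd4a and Enpp6, the latter a gene of newly forming oligodendrocytes, held Ntm at 415, 177 and 250 CPM. The log2 ratios were −0.73 (−0.82 to −0.64) and −0.65 (−0.76 to −0.55) in the former and −1.23 (−1.49 to −0.97) and −0.73 (−1.08 to −0.39) in the latter. The Ntm levels of the Enpp6 sub-cluster, from 232, 260 and 102 UMIs, lay below those of microglia-like nuclei, at 565, 203 and 646 CPM. Microglia-like nuclei were shallower, so an equal count per nucleus gives a higher CPM there. The UMIs of the sub-cluster came from 118, 284 and 76 nuclei, whereas shallow microglia-like nuclei held 0.647, 0.170 and 0.348 Ntm UMIs each. The part of free RNA in the ratios of the sub-cluster was not tested. The CBP-ablated library had 328 nuclei in the Bmp4 and 284 in the Enpp6 sub-cluster, against 285 and 118 in control, so the mix of sub-clusters moved with the ratio of −1.13 over the whole class.

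The other members did not share this step. Between the Bmp4 and the Enpp6 sub-clusters of control, Lsamp went from 14207 to 15432 CPM, Opcml from 17247 to 14291 and Negr1 from 1017 to 950 CPM. In oligodendrocyte-like nuclei, Lsamp was at 5351, 4971 and 6354 CPM in a sub-cluster led by Mobp and Mag and at 1472, 1082 and 1368 CPM in one led by Prr5l and Aspa. Opcml in the latter was at 3198, 1721 and 3780 CPM, with log2 ratios of −0.89 (−0.98 to −0.81) and 0.24 (0.16 to 0.32), whereas in the Mobp sub-cluster its CBP-ablated ratio was −0.07 (−0.16 to 0.03).

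In the RGC/PSC-like class, a sub-cluster led by Vgll3, Cemip and Pde1a held Ntm at 610 CPM in control, 170 in CBP-ablated and 138 in p300-ablated nuclei, with log2 ratios of −1.84 (−2.11 to −1.59) and −2.14 (−2.35 to −1.93). Microglia-like nuclei held 565, 203 and 646 CPM, so these levels were little above them in control and below them in both ablated libraries. Microglia-like nuclei were shallower, so an equal count per nucleus gives a higher CPM there. The Vgll3 sub-cluster held 572, 156 and 274 Ntm UMIs in 244, 210 and 462 nuclei. Shallow microglia-like nuclei held 0.647, 0.170 and 0.348 Ntm UMIs each. The part of free RNA in the ratios of the Vgll3 sub-cluster was not tested. Another sub-cluster of the class, led by Ccn2, Etnppl and Lmx1a, held Ntm at 1644, 1305 and 1085 CPM, with ratios of −0.33 (−0.45 to −0.22) and −0.60 (−0.71 to −0.49). Negr1 in these sub-clusters was at 1004, 526 and 832 CPM and at 1153, 750 and 1128 CPM, with CBP-ablated ratios of −0.93 (−1.09 to −0.77) and −0.62 (−0.77 to −0.47). The CBP-ablated ratio of Ntm was 0.05 (−0.09 to 0.19) in an NPC/OPC-like sub-cluster led by Tmem255b and Tafa1. That of Negr1 was 0.25 (−0.17 to 0.68) in the Mobp sub-cluster. A glial progenitor-like sub-cluster led by Adamts16 and Ccbe1 held 399 nuclei of control, 294 of the CBP-ablated and 409 of the p300-ablated library. Its Ntm ratios were −0.04 (−0.09 to 0.02) for the CBP-ablated and −0.47 (−0.53 to −0.41) for the p300-ablated library.

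**Figure D5:**
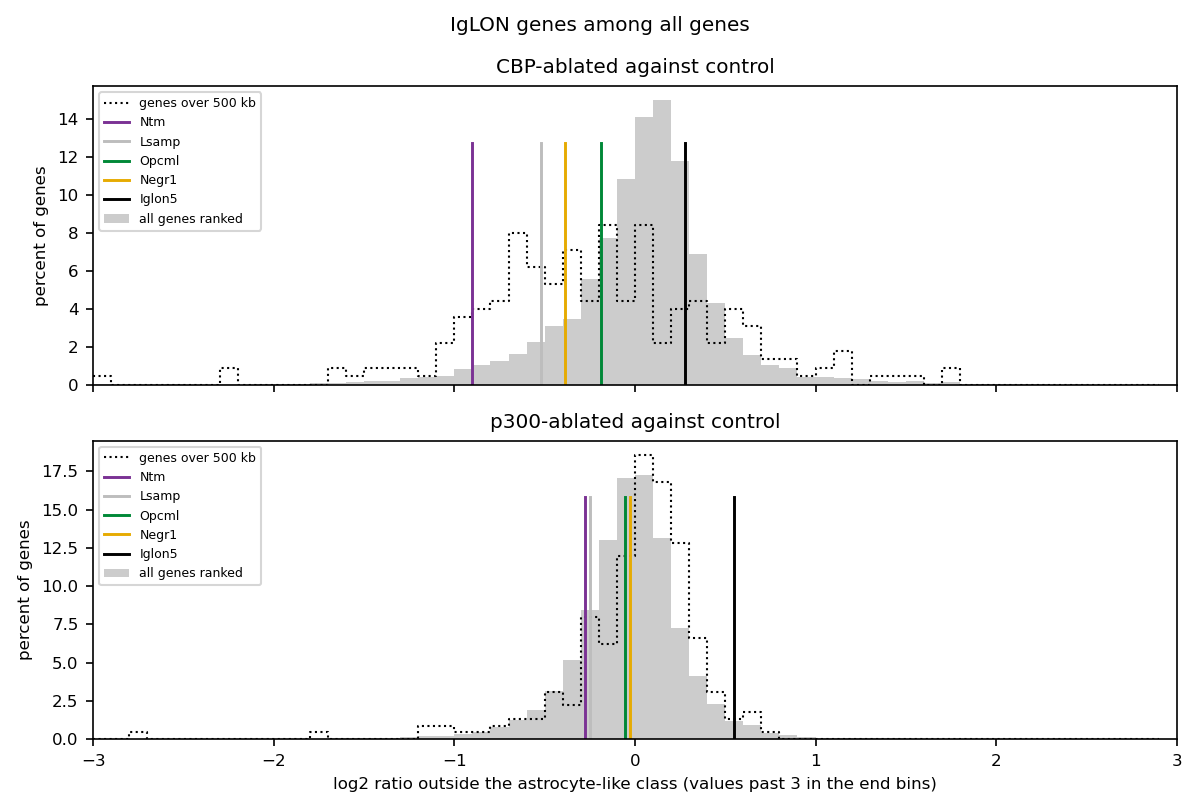
Distribution of log2 ratios against control outside the astrocyte-like class (x axis) over all genes ranked (grey bars) and over genes longer than 500 kb (dotted line), as percent of genes (y axis), with the 5 members as vertical lines. In the CBP-ablated library the dotted line is shifted to lower ratios, with a median of −0.21 against 0.07 for all genes.

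Long genes had a lower median ratio than all genes in the CBP-ablated library, with some well below and some well above control. Of the 222 ranked genes that span over 500 kb, members aside, 33.8% had a log2 ratio below −0.5 outside the astrocyte-like class and the median was −0.21, against 9.07% and 0.07 over all genes. Another 15.3% of the long genes lay above 0.5, and no share of all genes is given for that side. In the p300-ablated library the long genes had 7.21% below −0.5 and a median of 0.06, against 5.75% and −0.01. All 4 long members lay below the median of all genes in the CBP-ablated comparison, in the order Ntm −0.90, Lsamp −0.52, Negr1 −0.39 and Opcml −0.19, and Opcml was above the median of the long genes. Among long genes the lowest ratio in both comparisons was that of Slc7a11, a cystine transporter, at −3.06 and −2.80, and the highest were Grm7, a glutamate receptor, at 1.78 in the CBP-ablated and the receptor kinase Alk at 0.79 in the p300-ablated comparison. The part of gene length in the IgLON ratios was not tested. Ratios of the listed genes, here and below, pool classes whose mix differed between libraries. NPC/OPC-like nuclei numbered 1030 in control, 339 in CBP-ablated and 1775 in p300-ablated, and oligodendrocyte-like nuclei 160, 487 and 193. The part of this mix in the ratios of the listed genes was not tested.

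Other immunoglobulin adhesion genes were listed for comparison. Of 9 further GPI-anchored genes, the contactins, the Mdga pair and Thy1, 8 were ranked. In the CBP-ablated library outside the astrocyte-like class 3 lay below −0.5 (37.5%, against 9.07% of all genes) and 3 above 0.5, with a median of −0.35. No share of all genes above 0.5 is given here. Cntn4 was lowest, from 255 CPM in control to 106, a log2 ratio of −1.26 (−1.36 to −1.17), and Cntn3 highest, from 105 to 209 CPM, a ratio of 0.99 (0.90 to 1.09). Cntn4 is also a leading gene of an NPC/OPC-like sub-cluster at a resolution of 1.2. That sub-cluster held 383 nuclei of control, 45 of the CBP-ablated and 758 of the p300-ablated library. In the p300-ablated library all 8 lay between −0.24 (Cntn5) and 0.38 (Cntn2), with a median of 0.09. A further 19 adhesion genes, nearly all of them transmembrane, included the Ncam, L1, Cadm, Nectin and Dscam groups. In the CBP-ablated library 2 of them lay below −0.5 (10.5%, near the 9.07% of all genes) and 3 above 0.5. They ranged from Igsf21 at −1.02 to the axonal and glial adhesion gene Nfasc at 0.94, with a median of −0.14. In the p300-ablated library their median was 0.05, from −0.27 for Ncam2 to 0.52 for L1cam.

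Genes whose products attach the GPI anchor or release anchored proteins from the membrane were listed as well. Outside the astrocyte-like class all 6 lay within 0.5 of control in both comparisons, with medians of 0.13 and 0.04. The medians of all genes were 0.07 and −0.01. Only 9.07% of all genes (CBP-ablated) and 5.75% (p300-ablated) lay below −0.5, so this count does not set the 6 genes apart. For the side above 0.5 no such share is given. In the CBP-ablated library the 6 genes ranged from −0.42 (−0.81 to −0.04) for the phospholipase Gpld1 to 0.26 (0.06 to 0.47) for Gdpd5, a phosphodiesterase that cleaves GPI anchors. Adam10, a metalloprotease, was at 134 CPM in control, 130 in CBP-ablated and 120 in p300-ablated nuclei, with ratios of −0.04 (−0.14 to 0.06) and −0.16 (−0.26 to −0.07).

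The genes whose pattern over the 34 class sums was most like that of each member were taken from 13054 genes by Pearson's r. For Ntm they included Farp1 (0.88) and Syt7 (0.83), and for Negr1 they were Ptprn2 (0.89), Clstn2 (0.86) and Chd5 (0.85). For Lsamp they were Luzp2 (0.94), Grid1 (0.91) and Lrrc4c (0.90), for Opcml Csmd3 (0.93), Tgfa (0.92) and Dnm3 (0.92), and for Iglon5 Ptprs (0.89), Lhfpl4 (0.87) and Rab11fip3 (0.85). The r values of Iglon5 rest on low counts. Both it and Lhfpl4 had 0 UMIs in the microglia-like nuclei of every library.

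Antisense genes overlapping the members were counted separately and had few UMIs. Gm15520, opposite Ntm, had 202, 44 and 89 UMIs in control, CBP-ablated and p300-ablated nuclei. Gm28750, opposite Lsamp, had 122, 26 and 78, Gm48091, opposite Opcml, had 531, 401 and 778, and Gm15577, opposite Negr1, had 49, 27 and 42 UMIs.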

How the data were processed

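Single-nucleus 3′ RNA libraries (10x Genomics v3 kit) were analysed from control cultures and from cultures without CBP or p300, 1 library per condition, grouped by the genotype label. Per the study's methods and the submitters' processing notes, the authors made the deposited counts, UMIs per gene and nucleus over exons and introns, with Cell Ranger 3.1 on GRCm38 with gene annotation 94, checked reads with FastQC 0.11.9 and used Seurat 2.3.4. The counts are not normalized.

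The libraries held 16312170, 12748336 and 18876682 UMIs. Merged nuclei were clustered in R 4.3.3 with Seurat 5.3.0 (20 components, resolution 0.6, 1000 variable genes per library), and a class was named where its nuclei held its preset markers. Doublets were the nuclei with the highest Scrublet scores (scanpy 1.11.5), at a preset share of 0.8% per 1000 nuclei of a library, and were kept in the main values. This called 191 nuclei of control, 73 of the CBP-ablated and 173 of the p300-ablated library, against 149, 117 and 90 by Scrublet's own threshold. The Ogn cluster stayed in the whole-library values and in those outside the astrocyte-like class, and was not compared as a class. UMIs were summed per class and library and given as CPM with exact Poisson intervals, shares of nuclei with Clopper-Pearson intervals, and log2 ratios with conditional binomial intervals, in Python 3.11.15 with scipy 1.17.1. Ratios needed 20 UMIs over both libraries in a class and 100 among all genes. The ratio was tested on simulated data. Gene spans came from GENCODE M21 (GRCm38), in which 30410 of 30559 identifiers were found. With 1 library per condition no p-values were computed. Named genes were the members, their 3 most similar genes by Pearson's r, the extremes of fixed gene lists and overlapping genes. Of the genes this rule names, 1 is not reported here. The members and lists were chosen with earlier results of these data known. Alternatives covered the clustering, naming, doublets, thinning to 1500 UMIs, scaling, class weights and free RNA.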

Additional observations from a re-analysis of the deposited data

Results flagged for a closer look

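In 4 cases a member was lower than control in one class and higher in another of the same ablated library, with both intervals away from 0. The differences between classes were not tested, since each condition has 1 library. Lsamp in the CBP-ablated library had a log2 ratio of −0.81 in the Gadd45b cluster and of 0.49 in microglia-like nuclei. Opcml in the CBP-ablated library had −0.60 in immature neuron-like nuclei, of which that library held 20, and 1.59 in microglia-like nuclei. Lsamp in the p300-ablated library had −0.47 in RGC/PSC-like and 0.46 in microglia-like nuclei. The level taken as free RNA was measured in the shallow nuclei of this microglia-like class, so the 2 are not independent. Over all microglia-like nuclei, Lsamp UMIs per nucleus were 1.32, 1.74 and 3.36 times that level in control, CBP-ablated and p300-ablated libraries. For Opcml they were 2.30, 2.09 and 3.63 times it. The median microglia-like nucleus held 2 Lsamp UMIs in each library, and 1.64%, 4% and 11.3% of these nuclei held 10 or more. The highest Opcml count of a single nucleus was 64, 99 and 77 UMIs, of 202, 222 and 301 in the class. The part of free RNA in these ratios was not tested. The share of Opcml among the family UMIs of microglia-like nuclei was 22.3% in control, 43.9% in CBP-ablated and 39.3% in p300-ablated nuclei, beside 21.8%, 37.5% and 34.4% in the whole libraries. Negr1 in the p300-ablated library had −0.31 in glial progenitor-like and 0.60 in oligodendrocyte-like nuclei, the latter from 541 UMIs against 254 in control.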

How the results depend on the processing

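No paired analysis was possible because each condition has 1 library, and for the same reason no library could be left out. Each value below is a log2 ratio against control unless it is called a number of classes, and causes of the shifts were not tested. Between whole libraries, thinning each nucleus to 1500 UMIs gave −1.96 for Ntm, 0.27 for Opcml, −0.44 for Negr1 and 0.85 for Iglon5 in the CBP-ablated library, and −1.44 for Ntm, −0.41 for Lsamp, 0.39 for Opcml and −0.19 for Negr1 in the p300-ablated library. Centring on the median of all genes gave −2.07 for Ntm, −0.73 for Lsamp, 0.13 for Opcml and −0.57 for Negr1 in the former, and −1.35, −0.36, 0.36 and −0.11 in the latter. The mean over nuclei of the share of UMIs gave −1.92 for Ntm, −0.63 for Lsamp, 0.31 for Opcml and −0.45 for Negr1 in the former, and −0.39 for Lsamp and 0.44 for Opcml in the latter.

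Outside the astrocyte-like class of the CBP-ablated comparison, classes by marker score gave −1.01 for Ntm and −0.53 for Lsamp, leaving out called doublets gave −0.80 for Ntm, and weighting classes by control shares gave −0.45 for Ntm, −0.26 for Lsamp, −0.14 for Opcml and −0.48 for Negr1. In the p300-ablated comparison the marker score gave −0.37 for Ntm, leaving out doublets gave −0.18 for Ntm and −0.067 for Opcml, and weighting gave −0.32 for Ntm and 0.085 for Opcml, which reversed its sign. Leaving out the Ogn cluster, a setting added after the data were seen, gave −0.83 (CBP-ablated) and −0.20 (p300-ablated) for Ntm and −0.23 (p300-ablated) for Lsamp outside the astrocyte-like class, and 0.35 for Opcml between the whole p300-ablated and control libraries.

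The number of classes with a lower level was 7 of 9 by marker score for Negr1 in the CBP-ablated library and 3 of 9 in the p300-ablated library. For Iglon5 in the p300-ablated library it was 0 at a resolution of 1.2, by marker score and without doublets. For Ntm in the p300-ablated library it was 5 with 5% and 5 with 10% of free RNA subtracted. For Opcml there it was 4 and 4 in these settings, 4 with the counts of shallow microglia-like nuclei subtracted (added after the data were seen) and 2 when centred within the class. Within classes the sign reversed for Opcml in CBP-ablated neuron-like nuclei without doublets (0.46) and in CBP-ablated RGC/PSC-like nuclei after the subtraction of shallow microglia-like counts (−2.29). It also reversed for Ntm in oligodendrocyte-like nuclei with 5% free RNA (1.32 in CBP-ablated, 0.24 in p300-ablated) and in CBP-ablated neuron-like nuclei with 10% (0.019), and for Lsamp in p300-ablated neuron-like nuclei by marker score (−0.20). Of the values within classes, 728 moved by less than their counting interval and 170 by more without a change of sign. Where a subtraction left nothing, no value was given.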
